A study of Bombyx mori with 4 samples.

Results

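The chaperone and protein folding genes of the silkworm Bombyx mori were read in larval testis of the op mutant and of wild type. The members were the array probes whose gene description contained a word for a heat shock protein, chaperone or chaperonin, DnaJ protein, FK506 binding protein, peptidylprolyl isomerase, protein disulfide isomerase, prefoldin, calreticulin or crystallin. Descriptions with the words mitochondrial, ubiquitin or proteasome were to be left out, and 0 probes were lost in this way. The rule found 61 of the 43803 probes on the array, with 31 of the 34631 different target IDs that the probe names hold. Each target ID is called an EST here, for expressed sequence tag, as a label only. There are more target IDs than tags from which the array was built, so their number is not a count of tags. The 31 ESTs of the members carry 23 human gene symbols. The descriptions came from 1999 of the 12981 rows of the study's table of human homologs, so folding genes named only in the other rows are not included. The remaining subunits of the chaperonin CCT were not among the members. By the compartment in which the human product works, 45 probes were cytosolic, 10 belonged to the endoplasmic reticulum (ER) and 6 were mitochondrial.

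The op larvae carry the op mutation, which gives a translucent skin and low uric acid. They were compared with wild-type larvae of the same strain, o751, both reared on fresh mulberry leaves and dissected on day 3 of the fifth instar. RNA of 2 op and 2 wild-type testis samples was hybridized to 1-color arrays on 1 slide, while the methods give a larger n per genotype and do not say how the larvae were shared among the arrays. Nothing states that the arrays of a genotype came from separate larvae, so the p-values measure the spread between these samples, which may be technical.

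Molecular chaperones hold unfolded chains and release them in cycles, often driven by ATP. In the cytosol, Hsp70 works with J proteins, and prefoldin hands actin and tubulin to CCT, a ring-shaped chaperonin. In the ER, BiP, GRP94, calreticulin and protein disulfide isomerases fold secreted and membrane proteins, and a separate chaperonin works in mitochondria. Spermatogenesis needs large amounts of folded tubulin for the sperm tail. The roles given below are those of the human or other animal homologs, since the silkworm genes were named by homology to human genes.

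The values below are log2 normalized signals, made by taking the log2 of the background-subtracted signal and subtracting the array's own 75th percentile. They compare the same probe between arrays and do not rank 1 probe against another. Testing was limited to the 30376 probes that both arrays of op, or both of wild type, showed well above background, and differences are op minus wild type from limma with Benjamini-Hochberg adjustment over these probes. The op arrays differed more from each other than the wild-type arrays. Over all tested probes, replicate 2 minus replicate 1 had an SD of 0.69 for op and 0.36 for wild type. Over the folding probes it was 0.34 for op and 0.14 for wild type.

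Of the 61 folding probes, 58 were tested, and each of these was well above background on all 4 arrays. None passed the adjusted threshold of 0.05 in limma, where 0.316% of all tested probes did (0 of 58 folding probes). At an unadjusted p under 0.05 limma gave 6 folding probes, 10.3% against 18.7% of all tested probes, and the t-test on the same values gave 8 before adjustment and 0 after it. The largest folding difference was -0.83 on the log2 scale, in UXT, while the smallest difference that passed among all probes was 1.74 in size. All 95% intervals of the folding probes lay between -1.32 and 1.12, that is, between 2.50-fold lower and 2.17-fold higher in op. The op arrays lay both above the wild-type arrays for 9 folding probes and both below them for 11, against 28.8% and 24.9% of all tested probes. These counts make 34.5% of the folding probes whose genotypes did not overlap, beside 53.7% of all tested probes. The median difference was 0.01 over the folding probes and 0.03 over all tested probes.

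**Figure D1:**
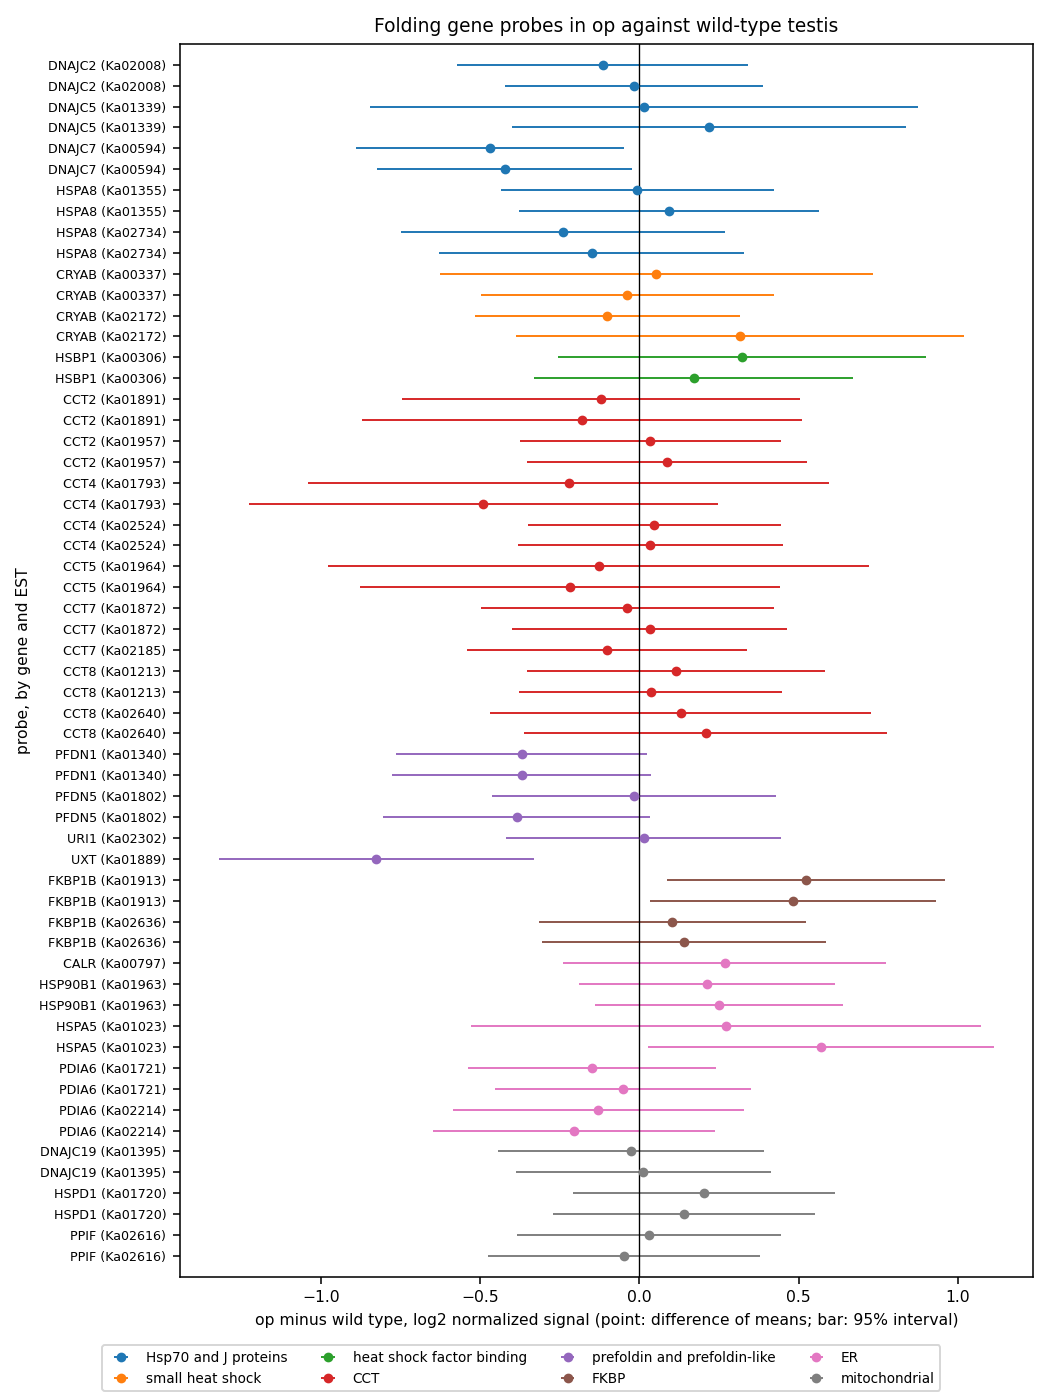
Difference between op and wild type for each of the 58 tested folding probes, as log2 normalized signal on the x axis, by gene and EST down the page and colored by class. Points are differences of means of 2 arrays each and bars are 95% intervals from limma. The UXT probe at -0.83 lies farthest from 0, and most intervals cross 0.

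The cytosolic Hsp70 and its J protein partners had 10 tested probes, of which 3 had a positive and 7 a negative difference, with a median of -0.07. The probes with the largest differences were those of DNAJC7, a J protein with repeats that bind both Hsp70 and Hsp90. Its probe Ka00594_576 read 1.23 and 1.40 on the op arrays, against 1.81 and 1.75 on the wild-type arrays. The other probe, Ka00594_687, read -0.03 and 0.08 in op, against 0.46 and 0.44 in wild type. Both probes thus put both op arrays below both wild-type arrays. The differences were -0.47 ± 0.16 and -0.42 ± 0.15 (SE), with 95% intervals from -0.89 to -0.05 and from -0.82 to -0.02 and adjusted p = 0.239 and 0.255 in limma. They are 2 of the 3 folding probes with a negative difference and an unadjusted p under 0.05, where 8.04% of all tested probes were of that kind.

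HSPA8, the constitutive Hsp70 of the cytosol, was read by 2 ESTs. The probes of Ka01355 had differences of -0.01 and 0.09, and those of Ka02734 had differences of -0.24 and -0.15, with adjusted p between 0.549 and 0.987. Hsp70 genes are alike in sequence, so which silkworm gene each EST reads is uncertain. DNAJC2, a J protein that sits on the ribosome, had differences of -0.11 and -0.02. DNAJC5, the cysteine string protein of secretory vesicles, had 0.22 and 0.01. Its probes were unlike within both genotypes, since op replicate 2 lay 0.44 and 0.66 above op replicate 1, and wild type replicate 2 lay 0.32 and 0.57 below wild type replicate 1.

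CRYAB names the alpha B-crystallin of human lens and muscle, a small heat shock protein that keeps unfolded chains soluble. Its 4 probes from 2 ESTs had differences between -0.10 and 0.32. Probe Ka02172_601 read 2.76 and 3.32 on the op arrays, against 2.55 and 2.90 on the wild-type arrays, a difference of 0.32 ± 0.27 (SE) with adjusted p = 0.569, which was 0.60 without op replicate 1 and 0.03 without op replicate 2. The second probe of the same EST, Ka02172_581, read 4.80 and 4.77 in op, against 4.80 and 4.97 in wild type, a difference of -0.10 ± 0.16 (SE) with adjusted p = 0.759. The sign thus turned between probes of 1 transcript. HSBP1, a small protein that binds heat shock factor and restrains it, read -4.58 and -4.11 in op, against -4.72 and -4.61 in wild type, at probe Ka00306_114. At probe Ka00306_94 it read -1.53 and -1.18 in op, against -1.56 and -1.48 in wild type. The differences were 0.32 and 0.17, with adjusted p = 0.484 and 0.655, and became 0.15 and 0.09 with normexp background correction.

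Prefoldin and the prefoldin-like proteins had the lowest median of the cytosolic classes, at -0.37 over 6 tested probes, and 5 of the 6 differences were negative. The op arrays lay below both wild-type arrays for 4 of the 6, beside 24.9% of all tested probes. UXT, a prefoldin-like protein of a complex that also holds URI1, had the largest difference of all folding probes on this scale. Its probe Ka01889_484 read -3.62 and -3.94 on the op arrays, against -2.89 and -3.02 on the wild-type arrays. The genotypes did not overlap, and the difference of -0.83 ± 0.19 (SE) had a 95% interval from -1.32 to -0.33, with adjusted p = 0.145. It passed the threshold when op replicate 1 was left out, at -0.99 with adjusted p = 0.0426, in a fit that called 7.94% of all probes and in which the lone op array is assumed to vary like the wild-type arrays. With normexp background correction it was -0.43, with adjusted p = 0.233, which was smaller than the differences of FKBP1B (0.54) and DNAJC7 (-0.49) in that fit. The second UXT probe, Ka01889_546, was not tested. Neither op array and only 1 of 2 wild-type arrays showed it well above background, with processed signals of 8.24 and 10.1 in op, against 23.7 and 12.2 in wild type.

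Of the prefoldin subunits proper, PFDN1 had a difference of -0.37 at both its probes, with adjusted p = 0.289 and 0.297. Probe Ka01802_744 of PFDN5 read 1.39 and 1.22 in op, against 1.65 and 1.73 in wild type, a difference of -0.39 ± 0.16 (SE) with adjusted p = 0.294. The other PFDN5 probe, Ka01802_513, had a difference of -0.02, and its op arrays spanned both wild-type arrays. URI1, the scaffold of the prefoldin-like complex, had a difference of 0.01 at its tested probe and was not well above background on any array at its other probe. PFDN1 and both probes of PIH1D1, a partner of that complex from the list of other cytosolic genes, were of like size, with PIH1D1 at -0.31 and -0.36 and adjusted p = 0.357 and 0.330. Of the germ line markers, PIWIL4 had differences of -0.35 and -0.29, NANOS3 of -0.09 and 0.01, and DAZAP1 of -0.22 and -0.18 at one EST and 0.34 at the other. Their part in the prefoldin differences was not tested.

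**Figure D2:**
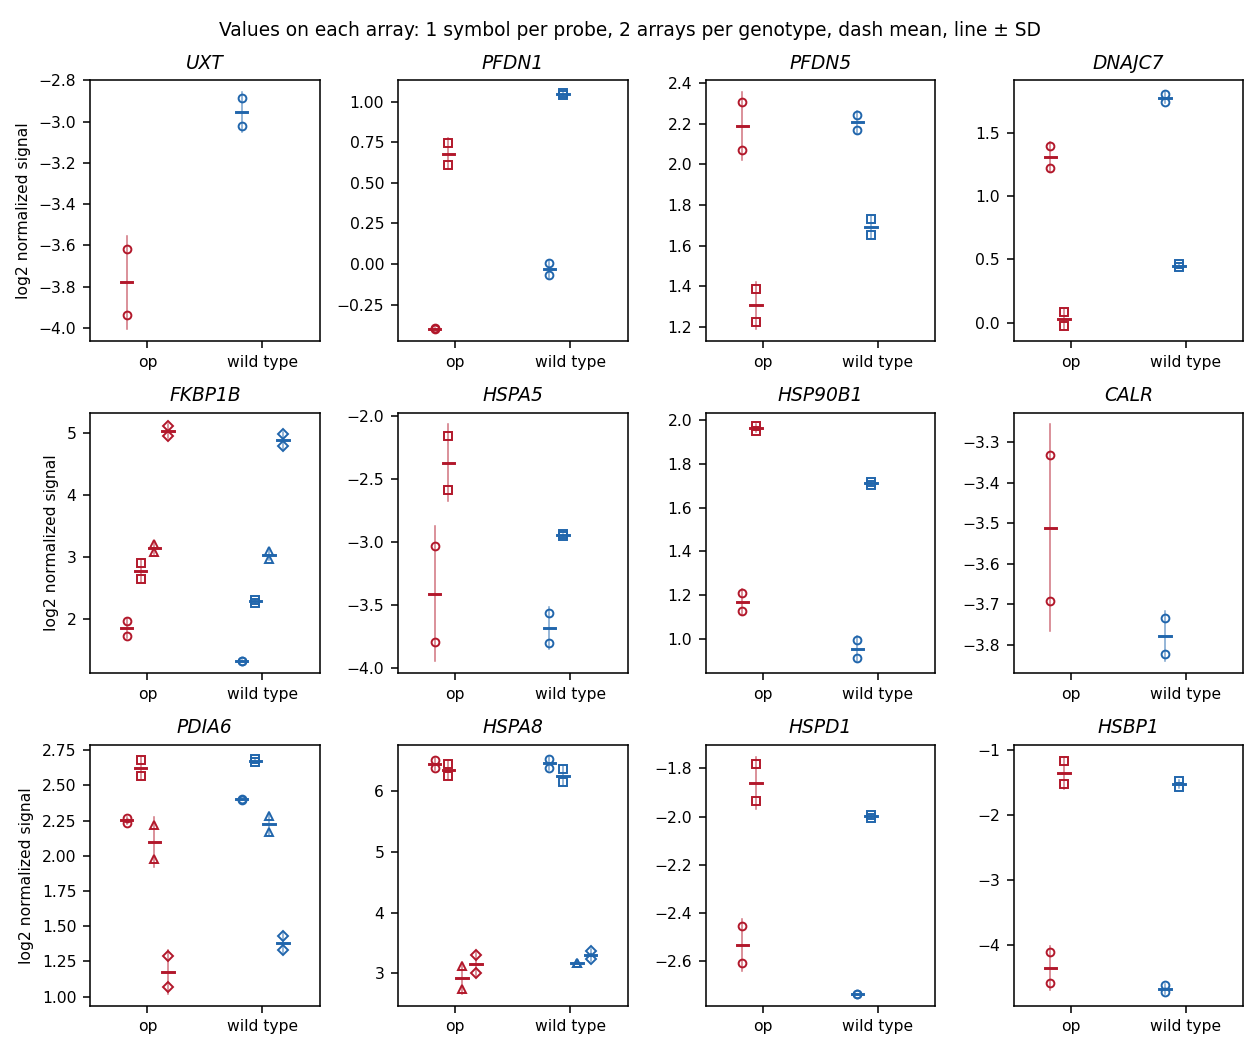
Log2 normalized signal of each tested probe of 12 folding genes on the 2 op arrays (red, left) and the 2 wild-type arrays (blue, right). Each open symbol shape is 1 probe, dashes are means and thin lines are ± SD. The op values of UXT, PFDN1 and DNAJC7 lie below the wild-type values of the same probe, and those of HSP90B1, CALR and HSPD1 lie above.

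FKBP1B, a small prolyl isomerase that binds FK506 and, in mammals, steadies the ryanodine receptor calcium channel, was read by 2 ESTs. Probe Ka01913_294 read 1.73 and 1.96 on the op arrays, against 1.31 and 1.33 on the wild-type arrays. Probe Ka01913_356 read 2.64 and 2.89 in op, against 2.26 and 2.31 in wild type. Both op arrays lay above both wild-type arrays at both probes. The differences were 0.52 ± 0.16 and 0.48 ± 0.17 (SE), with adjusted p = 0.218 and 0.250, and 10.6% of all tested probes had a positive difference and an unadjusted p under 0.05 as these did. The second EST, Ka02636, had differences of 0.10 and 0.14, and its genotypes overlapped. ESTs with 1 human symbol can be different silkworm genes, and they were not matched to gene models here. Of the muscle markers, TNNT3 and TPM2 read higher in op at 4 of 4 probes. MYH11 had a negative difference at 2 of 2, but its wild-type arrays lay between the op arrays at both. None of these marker probes passed the adjusted threshold (values below), and the part of these genes in the FKBP1B difference was not tested.

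The cytosolic chaperonin CCT had 17 tested probes for 5 of its subunits, the most of any class. Of these, 9 had a positive and 8 a negative difference, between -0.49 and 0.21. In limma 0 had an unadjusted p under 0.05, beside 18.7% of all tested probes. Only 1 of the 17 probes put both op arrays on 1 side of both wild-type arrays, beside 53.7% of all tested probes. That was probe Ka01793_719 of CCT4, which read 1.07 and 1.78 in op, against 1.95 and 1.87 in wild type, a difference of -0.49 ± 0.28 (SE) with adjusted p = 0.414. It was -0.14 without op replicate 1 and -0.84 without op replicate 2, with adjusted p = 0.561 and 0.0510. The median CCT difference was 0.03.

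Within op, however, the CCT subunits were unlike on the 2 arrays. Probe Ka01964_382 of CCT5 read -0.60 on op replicate 1 and 0.26 on op replicate 2, against -0.03 and -0.06 on the wild-type arrays. Probe Ka01793_679 of CCT4 read 0.63 and 1.44 in op, against 1.32 and 1.20 in wild type. The wild-type arrays thus lay between the op arrays at both probes, and the fitted differences were -0.13 ± 0.32 and -0.22 ± 0.31 (SE), with adjusted p = 0.852 and 0.727. Without op replicate 1 they turned to 0.30 and 0.18. The 6 probes of the ESTs Ka01891 (CCT2), Ka01793 (CCT4) and Ka01964 (CCT5) had a gap of 0.56 to 0.86 from op replicate 1 up to op replicate 2, while the wild-type gaps of these probes ran from -0.12 to 0.16. These 3 ESTs were picked after their values were seen.

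The other CCT probes had op gaps between -0.23 and 0.52. CCT8 stood at 0.15 to 0.52, whereas CCT7 stood at -0.23 to -0.17. The second EST of CCT4, Ka02524, had gaps of -0.08 and -0.03, and the second EST of CCT2, Ka01957, had 0.10 and 0.23, so the ESTs of 1 symbol were unlike. Over all 17 probes the median gap was 0.29 in op and 0.04 in wild type, beside -0.01 and 0.03 over all tested probes. A gap over 0.5 in size, in either direction, was found in op for 7 CCT probes and for 11 of the 58 folding probes in all, where 27.6% of all tested probes had one. Op replicate 2 was the higher array in 10 of the 11, that is, in 17.2% of the folding probes, beside 14.3% of all tested probes. These 10 included the 6 probes of the 3 CCT ESTs set apart above, 2 probes of CRYAB and 1 of DNAJC5. Probes of 1 EST are not independent. At 1 probe of HSPA5 op replicate 2 was the lower array. In wild type 1 folding probe, of DNAJC5, had such a gap, with replicate 2 lower, against 8.23% of all tested probes. On the muscle list, MYH11, a myosin heavy chain, had gaps of 0.93 and 0.97 in op, against 0.14 and 0.05 in wild type. TNNT3 had gaps of 0.37 and 0.43 in op, against 1.58 and 1.62 in wild type, and TPM2 had 0.58 and 0.77 in op, against 1.75 and 0.88 in wild type. The part of these genes in the CCT gap was not tested.

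**Figure D3:**
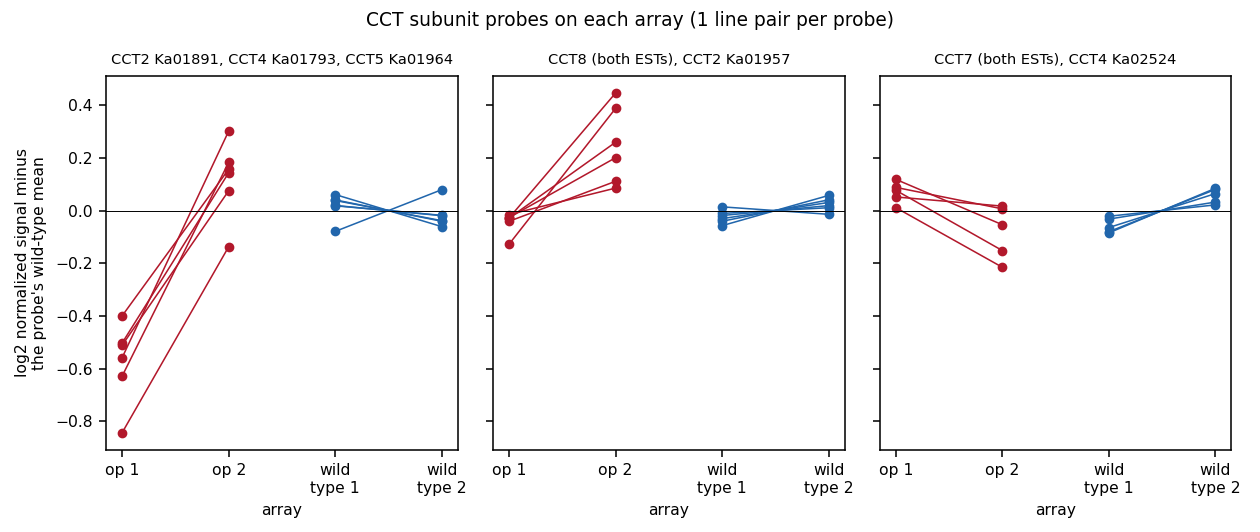
CCT subunit probes on op replicates 1 and 2 (red, left) and wild type replicates 1 and 2 (blue, right), as log2 normalized signal minus the wild-type mean of the same probe. Lines join the arrays of 1 genotype for 1 probe. The left panel holds the 6 probes with gaps of 0.56 to 0.86 between the op arrays, the middle panel CCT8 and Ka01957, and the right panel CCT7 and Ka02524.

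Actins and tubulins, the main clients of CCT and prefoldin, were read by 33 tested probes. None passed the threshold in limma, beside 0.316% of all tested probes. An unadjusted p under 0.05 was found for 0 of them, beside 18.7% of all tested probes. All 18 actin probes had a positive difference, between 0.01 and 0.21, as 53.2% of all tested probes did. Of the 15 tubulin probes 8 were positive and 7 negative, between -0.24 and 0.31. Actin genes are much alike in sequence, so these probes may not be separate measurements. The op gap had a median of 0.23 over the actin probes and -0.13 over the tubulin probes.

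The ER folding genes had 10 probes, of which 9 were tested and 0 passed the threshold. HSPA5 is BiP, the Hsp70 of the ER and the usual readout of ER stress. Its probe Ka01023_1234 read -2.16 and -2.59 on the op arrays, against -2.94 and -2.95 on the wild-type arrays, so that the genotypes did not overlap. The difference was 0.57 ± 0.20 (SE), with a 95% interval from 0.03 to 1.12 and adjusted p = 0.255, and was 0.37 with normexp background correction and 0.36 without op replicate 1. The other probe, Ka01023_1172, read -3.03 and -3.79 in op, against -3.57 and -3.80 in wild type, and its genotypes overlapped. Its difference was 0.27 ± 0.30 (SE) with adjusted p = 0.657, and it turned to -0.11 without op replicate 1. Here op replicate 1 was the high array at both probes, by 0.43 and 0.76, opposite to the CCT ESTs Ka01891, Ka01793 and Ka01964.

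HSP90B1, the Hsp90 of the ER known as GRP94, had differences of 0.21 and 0.25, and both op arrays lay above both wild-type arrays at both probes. The adjusted p was 0.503 and 0.428. CALR, calreticulin, a lectin chaperone for glycoproteins, had a difference of 0.27 at probe Ka00797_123, also without overlap, with adjusted p = 0.506, and 0.09 without op replicate 1. Its second probe was not well above background on any array. PDIA6, a protein disulfide isomerase, had negative differences, of -0.05 to -0.20, at all 4 probes of 2 ESTs and adjusted p of 0.560 or more. The median over the 9 ER probes was 0.21, beside 0.03 over all tested probes, and it was -0.01 without op replicate 1. The op arrays lay both above the wild-type arrays for 4 ER probes and both below them for 2, so that 6 of 9 did not overlap, beside 53.7% of all tested probes.

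Other ER folding and related genes, fixed as a list of 13, had 25 tested probes with 15 positive and 10 negative differences and a median of 0.17. The list held CANX, P4HB, ERP29, TMX3, PRKCSH, MANF, MESDC2, SDF2, PRDX4, SERP2, the retention receptor KDELR1, and DERL1 and DERL2. Only 2 of the 25 had an unadjusted p under 0.05, beside 18.7% of all tested probes, and both read PRKCSH, the beta subunit of glucosidase II, which trims glycans before calnexin and calreticulin bind. Probe Ka02691_510 read 0.15 and 0.03 on the op arrays, against -0.59 and -0.70 on the wild-type arrays. Probe Ka02691_442 read -0.20 and -0.19 in op, against -0.74 and -0.73 in wild type. The gap between genotypes was wider than that between replicates in both, at 0.73 ± 0.16 and 0.54 ± 0.15 (SE), but adjusted p was 0.137 and 0.186. CANX, calnexin, the membrane-bound partner of calreticulin, read -2.27 and -0.73 in op, against -2.06 and -1.96 in wild type at probe Ka00172_481. At probe Ka00172_541 it read -4.94 and -3.03 in op, against -4.50 and -4.45 in wild type. Only op replicate 2 stood high, and the differences of 0.51 and 0.49 had adjusted p = 0.641 and 0.715. Without op replicate 1 they became 1.28 and 1.45, with adjusted p = 0.0287 and 0.0226, in the fit with 1 op array that called 7.94% of all probes, and without op replicate 2 they turned to -0.26 and -0.47.

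The list of 7 other cytosolic folding and related genes held CHORDC1, PIH1D1, TBCB, TBCEL, ASNA1, C11orf73 and BTF3L4. It had 13 tested probes, with 3 positive and 10 negative differences and a median of -0.28. The op arrays lay below both wild-type arrays for 9 of the 13, beside 24.9% of all tested probes, and the list was not tested. TBCB, tubulin folding cofactor B, which acts on alpha tubulin after CCT, had an unadjusted p under 0.05 at both its probes. Probe Ka01751_445 read 0.77 and 0.60 on the op arrays, against 1.23 and 1.26 on the wild-type arrays, and probe Ka01751_404 read -0.50 and -0.62 in op, against -0.06 and -0.04 in wild type. The differences were -0.56 ± 0.16 and -0.51 ± 0.15 (SE), with adjusted p = 0.192 and 0.206. CHORDC1, an Hsp90 partner, was on the other side, at 0.27 and 0.33, with adjusted p = 0.476 and 0.395.

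**Figure D4:**
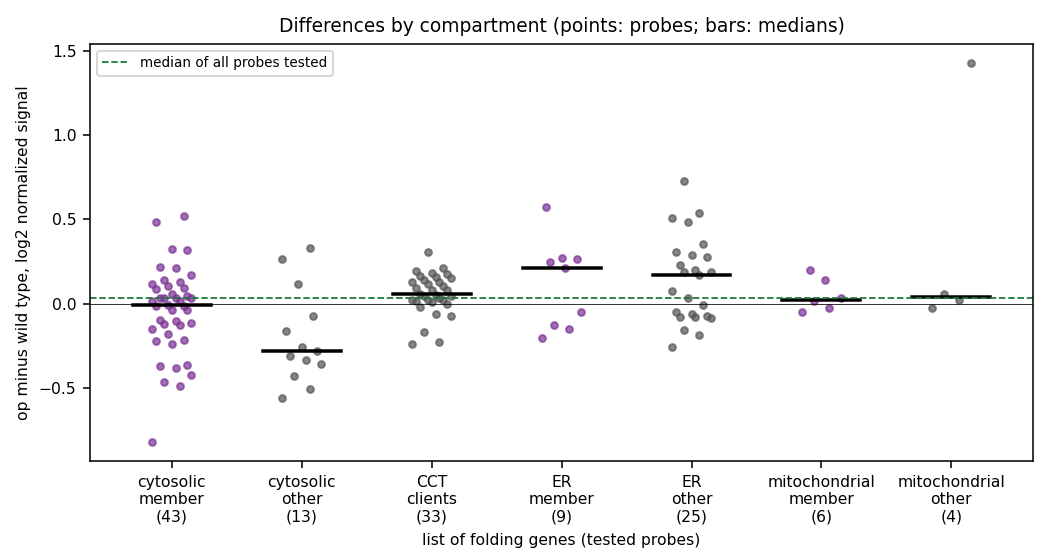
Differences between op and wild type, in log2 normalized signal, for the tested probes of the folding genes (purple) and of other folding and related genes and CCT clients (gray), by compartment. Points are probes, black bars are list medians and the dashed line is the median of all probes tested. The medians of the other cytosolic genes (-0.28) and of the ER genes (0.21 and 0.17) lie farthest from that line.

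The mitochondrial folding genes had differences between -0.05 and 0.20. HSPD1, the mitochondrial chaperonin Hsp60, read -2.46 and -2.61 on the op arrays at probe Ka01720_444, against -2.73 and -2.74 on the wild-type arrays. At probe Ka01720_513 it read -1.78 and -1.94 in op, against -1.99 and -2.01 in wild type. Both op arrays lay above both wild-type arrays, but the differences of 0.20 ± 0.15 and 0.14 ± 0.15 (SE) had adjusted p = 0.535 and 0.656. DNAJC19, a J protein of the import motor of the inner membrane, had -0.03 and 0.01. PPIF, cyclophilin D of the mitochondrial matrix, had 0.03 and -0.05. Over the 6 probes the median was 0.02 and 0 had an unadjusted p under 0.05, beside 18.7% of all tested probes. The 2 other mitochondrial genes, PAM16 and DNLZ, had 4 tested probes, and none passed the threshold, beside 0.316% of all tested probes. PAM16 had differences of 0.02 and -0.03. DNLZ had 0.06 at probe Ka02593_580 and 1.43 ± 0.68 (SE) at probe Ka02593_540, the latter with adjusted p = 0.347 in limma. At Ka02593_540 both op arrays lay above both wild-type arrays, but wild type replicate 2 lay 1.86 above wild type replicate 1.

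Probes of 1 EST share a target and are not independent. Among the 27 ESTs with a pair of tested folding probes, the differences of the pair were 0.08 apart in the median and had the same sign in 21. The gap was above 0.3 in 2 ESTs, Ka02172 of CRYAB (0.42) and Ka01802 of PFDN5 (0.37). Where a symbol had several ESTs, as 8 did, the ESTs were 0.16 apart in the median and at most 0.40, in CCT4, followed by 0.38 in FKBP1B.

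Markers of other cell types also read differently in the genotypes. Of 6 tested muscle and sheath probes, 4 had an unadjusted p under 0.05 and a positive difference, as 10.6% of all tested probes did, and the linear normalized signal of the list summed to 4.48 and 6.37 on the op arrays, against 1.53 and 3.04 on the wild-type arrays. TNNT3 and TPM2, a troponin and a tropomyosin of muscle, had differences of 1.76 to 2.41, while MYH11 had -0.14 and -0.19 and TMOD1 was not well above background on any array. Of 7 basement membrane probes, 5 were of the same kind. They read COL4A5, with a difference of 1.65, COL4A6, with 0.96 and 1.36, and NID1, with 3.09 and 3.08. The wild-type signal of NID1 probe Ka02336_410 did not clear the background, so the size of its difference of 3.09 is uncertain. The LAMA4 probes had differences of 0.06 and 0.10, and their genotypes overlapped. The list summed to 5.20 and 5.54 in op, against 4.82 and 4.21 in wild type, mostly from LAMA4, so this sum says little about the other genes. Of 15 tested gut enzyme probes, 4 had a negative and 1 a positive difference with an unadjusted p under 0.05 in limma. Of all tested probes 8.04% were negative in this way. These gut probes read CPA4, CPB1 and CELA2A. Each was well above background on both arrays only in the genotype where it read higher, and was tested through that genotype alone. The sizes of these differences are therefore uncertain. The gut list summed to 2.89 and 2.65 in op, against 3.01 and 3.28 in wild type. CELA1 was not well above background on any array. The 7 germ line probes of NANOS3, PIWIL4 and DAZAP1 were all tested, with 0 at an unadjusted p under 0.05, beside 18.7% of all tested probes. Both op arrays lay below both wild-type arrays for 4 of the 7 and above them for 1. Of all tested probes 24.9% lay below and 28.8% above. The germ line list summed to 20.6 and 20.9 in op, against 24.0 and 24.1 in wild type, mostly from the DAZAP1 EST Ka01843. The other DAZAP1 probe, Ka00803_758, was well above background on only 1 of 2 wild-type arrays. The symbols come from human homology, so detection of these probes does not by itself show germ line RNA. None of these marker probes passed the adjusted threshold. In bulk testis, fewer cells of a type and less RNA per cell cannot be told apart, and the part of these markers in the folding gene differences was not tested.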

How the data were processed

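RNA of 2 op and 2 wild-type testis samples was labeled with Cy3 and hybridized to 60-mer arrays on 1 slide. Spots were extracted by the authors with Agilent Feature Extraction 9.5, so each deposited intensity is a scanner signal from which the background had been subtracted. A second deposited table holds log2 values that the authors scaled per array and centered per probe with GeneSpring GX. Here the log2 of the processed intensity minus the 75th percentile of each array was used. Each array held 43803 probes, of which 67.8% to 72.3% were well above background. No spot was saturated, and control spots and 2 to 4 spots with an outlier flag per array were left out. Limma 3.58.1 (lmFit, then eBayes) under R 4.3.3 gave two-sided p-values for op against wild type, adjusted by Benjamini-Hochberg over the 30376 tested probes at a threshold of 0.05. The fit was tested on simulated data with changes larger than any folding difference and equal spread in both genotypes. That simulation cannot show how well changes of the size seen in folding genes are found. With 2 arrays per genotype the precision is limited, and the smallest two-sided p of an exact permutation test would be 0.333.

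Values on each array are given for folding probes with an unadjusted p under 0.05, for the 2 largest differences in each class but that of HSBP1, for the 4 largest gaps between op arrays, and for at most 4 other folding probes per list with an unadjusted p under 0.05. The values of CANX, HSBP1 and of the second UXT probe, the marker genes named and the CCT ESTs set apart were picked with their values in view. Earlier results of these data were known when the members and lists were chosen. Lists were described by counts and medians, with no test of a list. The 16 alternatives were other background corrections, scalings, filters and variance models, the deposited values, a replicate block, a t-test and leaving out each array. Gene names were taken by human homology from 1999 rows of the study's table, whose expression columns were not used. Sequences and chromosome positions of the probes are not used here.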

Additional observations from a re-analysis of the deposited data

How the results depend on the processing

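The number of folding probes called was 0 in limma and in each of the 16 alternatives but 1, while the count at an unadjusted p under 0.05 ran from 0 to 14. Leaving out single arrays gave between 0 and 1 calls, the 1 being UXT without op replicate 1. The count over all probes was 96. It was 414 with normexp background correction, 15 with quantile normalization, 45 with no scaling, 54 for probes well above background on all 4 arrays, 0 with no filter, 464 with a trend and robust fit, 55 with array weights, 0 with the t-test and 33 to 2413 when 1 array was left out. With no filter 5133 probes, and with the t-test 4213, had an unadjusted p under 0.05. The numbers in the sample titles did not pair the samples (the deviations of same-numbered arrays correlated at -0.03), and a replicate block gave 715 calls over all probes and 0 among the folding probes. The cause of these shifts was not tested.

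The cytosolic median of -0.01 became -0.10 with a shift to the array median or with no scaling, and lay between -0.05 and 0.04 without single arrays. The ER median of 0.21 became 0.15 with normexp and 0.12 with the median shift or no scaling, and lay between -0.0051 and 0.25 without single arrays. The mitochondrial median of 0.02 became -0.072 with the median shift and -0.074 with no scaling, and lay between -0.03 and 0.08 without single arrays. Under the median shift the median of all probes was -0.06, so the lists kept their place relative to all probes. The gap between op arrays of the CCT probes, 0.29, became 0.42 with quantile normalization and 0.63 with no scaling, where the gap of all probes was 0.02 and 0.34. It has no value without an op array.

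Of 37 single probes followed through the alternatives, 29 kept their sign in each. Without op replicate 1, the difference of CCT4 Ka01793_679 was 0.18, that of CCT5 Ka01964_382 was 0.30 and that of HSPA5 Ka01023_1172 was -0.11. Without op replicate 2, CANX Ka00172_481 was at -0.26, CANX Ka00172_541 at -0.47, HSBP1 Ka00306_94 at -0.0040, PDIA6 Ka01721_836 at 0.0044 and PFDN5 Ka01802_513 at 0.10. The last was at 0.02 without wild type replicate 1. Across the leave-out fits these ranges were -0.63 to 0.18 for the CCT4 probe, -0.56 to 0.30 for CCT5, -0.11 to 0.65 for HSPA5, -0.26 to 1.28 and -0.47 to 1.45 for CANX, -0.0040 to 0.35 for HSBP1, -0.11 to 0.0044 for PDIA6 and -0.13 to 0.10 for PFDN5.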
